A study of Homo sapiens with 2 samples.

Results

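CAL51 cells with high levels of PTGDS, ADAMTS8 and COL1A2 are described here from a single-cell 3′ RNA library. PTGDS is a prostaglandin D synthase, ADAMTS8 a secreted metalloprotease and COL1A2 the alpha-2 chain of type I collagen. The cells were chosen by these 3 transcripts. CAL51 barcodes with at least 5000 unique molecular identifiers (UMIs), whose sequence did not also occur in the other library, were ranked by the summed UMIs of the 3 genes divided by the cell's total. The top 15% were taken as members, which gave 161 members of 1071 ranked cells and left 910 other cells. The CAL51 library held 1377 barcodes with 16358684 UMIs in all, and the whole series 1683 barcodes. The levels of the 3 genes are therefore no result, and every other gene below was measured in the same cells that were ranked, so the comparisons are descriptions without a test.

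The study profiled the human triple negative breast cancer cell lines CAL51 and MDAMB468 by Drop-seq, with 1 library per line. Drop-seq captures polyadenylated RNA from single cells in oil droplets on barcoded beads. The labels name no treatment, genotype, time point or clone for either line. Triple negative tumours lack oestrogen receptor, progesterone receptor and HER2 amplification. Every interval given is at the 95% level and covers the error of counting alone, since no spread between cultures could be measured.

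Type I collagen is a heterotrimer of alpha-1 and alpha-2 chains and is the main fibrous collagen of connective tissue, where fibroblasts make it. Prostaglandin D synthase of the lipocalin type converts prostaglandin H2, a product of the cyclooxygenases, into prostaglandin D2. Carcinoma cell lines differ in how far they keep epithelial features, such as the adhesion molecule EPCAM and the keratins KRT8 and KRT18, beside mesenchymal ones such as vimentin.

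The members had a median of 10729 UMIs per cell (5025 to 61666) and the other cells a median of 10329.5 (5022 to 113702). Summed over cells, members gave 2078151 UMIs and other cells 13107610. Thinned to 5000 UMIs, a member showed a median of 2354 genes and another cell 2373.5. The median mitochondrial share was 4.304% against 4.145%, and the ribosomal protein share 12.1% against 11.6%. The 31 barcode sequences shared by both libraries were left out by the rule. Levels are given as CPM, the UMIs of a gene divided by the pooled UMIs of a group and scaled to 1000000, and a log2 difference is that of CPM + 1 in members minus the same in other cells.

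The score rested on few molecules. A member carried a median of 4 score UMIs (1 to 40). Of the members, 2 had 1 such UMI, 31 had 2 and 79 had at least 5. Among the other cells 740 had none and 170 had at least 1. The lowest member scored 192.9 CPM from 1 UMI in a cell of 5185, and the highest cell outside scored 192.4 CPM from 2 UMIs in a cell of 10395, so the boundary cuts a continuous range.

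The label names PTGDS and ADAMTS8, yet most members were chosen by COL1A2. COL1A2 was at 285.8 CPM in members and 14.3 CPM in other cells, PTGDS at 89.98 and 4.65 CPM, and ADAMTS8 at 32.2 and 3.05 CPM. COL1A2 was the only score gene in 80 members, PTGDS in 13 and ADAMTS8 in 4. The remainder held more than 1 of the genes, with 29 carrying PTGDS and COL1A2, 20 carrying ADAMTS8 and COL1A2, 2 carrying ADAMTS8 and PTGDS, and 13 carrying all of them. In MDAMB468 each of the 3 genes had 0 UMIs, which allows up to 0.545 CPM.

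The 3 genes were also found together in single cells, as a description. In ranked cells thinned to 5000 UMIs, PTGDS was present in 25.8% of the 31 cells with ADAMTS8 and in 4.71% of those without it. COL1A2 was present in 38.6% of the 57 cells with PTGDS and in 14.4% of those without. The UMIs of each cell were also divided at random into a pair of equal parts, with cells ranked in one and measured in the other. In the UMIs not used for ranking, COL1A2 was at 201.8 CPM in the cells chosen and 26.4 CPM in the rest, 7.66-fold higher (6.21 to 9.45). PTGDS was 12.5-fold higher (8.31 to 18.9) and ADAMTS8 5.43-fold higher (3.08 to 9.45). Both parts come from the same cells, so these folds describe the choice of cells and support nothing further. Their intervals do not cover spread between cells, and the highest PTGDS count of a member was 30, of 187 in all members. Of the 161 cells chosen in this way, 123 were members by the full counts.

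Of 6491 genes with at least 20 CPM over all ranked cells, 60 were at least 1.5-fold higher in members (0.924% of the genes) and 98 were at least 1.5-fold lower (1.51%), which together made 2.43%. The rule chose the cells from these same counts, so nothing is read from these shares. The median log2 difference over these genes was -0.04. CD24, EPCAM and SCIN were among the leading genes on the high side, and TNFRSF19, BEX1 and SPP1 among those on the low side.

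**Figure D1:**
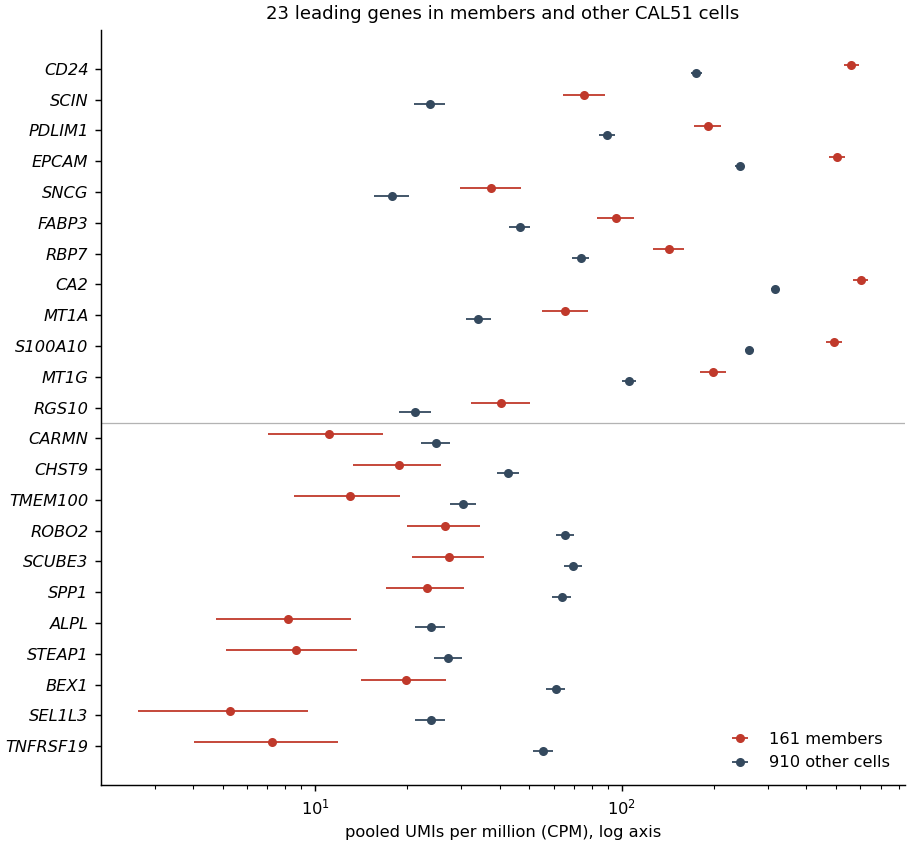
Pooled levels (CPM, log axis) of 23 leading genes in the 161 members and the 910 other CAL51 cells, with exact Poisson intervals that cover counting error. The upper 12 genes were higher in members, led by CD24 at 560.6 against 175.1 CPM, and the lower 11 were lower, ending with TNFRSF19 at 7.22 against 55.3 CPM.

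The promoters of the genes with the widest separation are printed to show the regions that lie upstream of a high pair and a low gene. Each is the 250 bases before a transcription start in RefSeq on GRCh38.p14, 5′ to 3′ on the strand of the gene. Capitals mark the GC box GGGCGG, the E-box CAGGTG and the TATA box TATAAA, each searched on both strands. RefSeq's table lists 3 starts for CD24, of which the most upstream is shown (chr6:106975628-106975877, minus strand), 1 for SCIN (chr7:12570470-12570719, plus strand) and 2 for TNFRSF19 (chr13:23570162-23570411 and chr13:23579110-23579359, plus strand).
CD24: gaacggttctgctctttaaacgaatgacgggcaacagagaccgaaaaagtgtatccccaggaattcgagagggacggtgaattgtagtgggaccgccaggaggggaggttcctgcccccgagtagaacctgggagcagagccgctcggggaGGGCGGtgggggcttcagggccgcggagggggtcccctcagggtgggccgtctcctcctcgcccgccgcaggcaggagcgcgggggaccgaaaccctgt
SCIN: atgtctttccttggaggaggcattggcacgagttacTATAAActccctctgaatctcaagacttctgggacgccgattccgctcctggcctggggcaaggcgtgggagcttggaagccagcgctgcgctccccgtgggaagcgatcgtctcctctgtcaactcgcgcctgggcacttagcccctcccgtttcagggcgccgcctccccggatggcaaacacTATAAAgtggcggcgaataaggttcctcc
TNFRSF19 upstream start: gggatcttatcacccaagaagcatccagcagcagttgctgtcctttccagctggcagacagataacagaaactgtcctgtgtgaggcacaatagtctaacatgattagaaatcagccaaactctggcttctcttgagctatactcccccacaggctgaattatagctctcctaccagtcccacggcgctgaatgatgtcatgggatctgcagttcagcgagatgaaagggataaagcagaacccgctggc
TNFRSF19 downstream start: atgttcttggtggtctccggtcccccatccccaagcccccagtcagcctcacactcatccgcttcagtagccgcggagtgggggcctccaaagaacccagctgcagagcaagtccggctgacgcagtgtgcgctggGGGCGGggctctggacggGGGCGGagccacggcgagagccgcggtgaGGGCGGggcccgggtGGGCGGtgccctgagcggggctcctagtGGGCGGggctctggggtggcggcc

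The 4 sequences differ in composition. The upstream TNFRSF19 window holds 49.6% G and C with 4 CpG dinucleotides and none of the 3 motifs, and the downstream one 72.4% with 20 CpG and 5 GC boxes. The CD24 window has 1 GC box and the SCIN window 2 TATA boxes. A 3′ library does not show which start was used. Across the genes, the E-box was in 21.7% of 83 promoters of the higher genes, 17.97% of 128 promoters of the lower genes and 13.95% of 7771 promoters of all genes past the floor. The GC box was in 59.0%, 51.6% and 65.0%, and the TATA box in 7.23%, 7.81% and 5.82% of the same promoters. Over all 35116 promoters of the table these shares were 17.5%, 42.6% and 10.7%. Of the 24 leading genes 17 had an entry there. A match is a description of letters and not a site.

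CD24 encodes a heavily glycosylated surface protein of epithelial and other progenitor cells (ENSG00000272398, chromosome 6, 106969831 to 106975627, minus strand, GENCODE release 29 on GRCh38). It was at 560.6 CPM in members (528.9 to 593.7) and 175.1 CPM in other cells (168 to 182.4), 3.20-fold higher (2.98 to 3.44). At 5000 UMIs per cell a member held a median of 2 CD24 UMIs (quartiles 0 and 4, highest 29) and another cell a median of 0 (quartiles 0 and 1, highest 15). The distributions overlapped, and some members had none. CD24 has near-identical copies elsewhere in the genome and its level is uncertain to that extent.

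EPCAM, the epithelial adhesion molecule (ENSG00000119888, chromosome 2, 47345158 to 47387601, plus strand), was at 502.4 CPM in members (472.4 to 533.8) and 242.7 CPM in other cells (234.3 to 251.3), 2.07-fold higher (1.93 to 2.22). At 5000 UMIs the median was 2 in members (quartiles 1 and 4) and 0 in other cells (quartiles 0 and 2). SCIN, the actin-severing protein scinderin (ENSG00000006747, chromosome 7, 12570577 to 12660179, plus strand), was at 75.5 CPM against 23.7 CPM, 3.19-fold higher (2.62 to 3.88). PDLIM1, a PDZ and LIM domain protein of actin filaments, was at 190.6 CPM against 89.5 CPM, 2.13-fold higher (1.90 to 2.39). These were the surface and actin-binding genes among the 12 highest.

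The rest of the 12 highest were small binding proteins, an enzyme and a signalling regulator. S100A10, a partner of annexin A2, was at 492.8 CPM in members and 260.4 CPM in other cells, and CA2, a carbonic anhydrase, at 601.02 and 315.6 CPM. The lipid-binding genes were FABP3, a fatty acid carrier, at 95.8 and 46.5 CPM, and RBP7, a retinol carrier, at 142.4 and 73.4 CPM. The metallothioneins MT1G and MT1A, which bind zinc and copper, were at 198.7 against 105.9 CPM and at 65.4 against 34.1 CPM. SNCG, gamma-synuclein, was at 37.5 against 17.8 CPM, and RGS10, which speeds the GTPase of G protein alpha subunits, at 40.4 against 21.2 CPM. Folds of these 8 genes lay between 1.88 and 2.11.

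On the low side the widest difference was in TNFRSF19, a TNF receptor family member also known as a WNT target (ENSG00000127863, chromosome 13, 23570370 to 23676104, plus strand). It had 15 UMIs in members and 725 in other cells, or 7.22 CPM (4.04 to 11.9) against 55.3 CPM (51.4 to 59.5), 7.66-fold lower (4.62 to 13.8). SEL1L3, a membrane protein, had 11 UMIs in members and 312 in other cells, 4.50-fold lower (2.48 to 9.10). BEX1, a brain-expressed X-linked gene, was at 19.7 against 61.0 CPM, 3.09-fold lower (2.26 to 4.34). Single cells rarely held more than a few of these molecules: at 5000 UMIs the highest TNFRSF19 count was 1 in a member and 6 in another cell, and the highest BEX1 count 3 and 8.

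The secreted and membrane genes SPP1, ALPL and SCUBE3 were lower too. SPP1, osteopontin, was at 23.1 against 63.7 CPM, ALPL, tissue-nonspecific alkaline phosphatase, at 8.18 against 23.8 CPM, and SCUBE3, a secreted EGF-repeat protein, at 27.4 against 69.5 CPM. STEAP1, a metalloreductase family member, was at 8.66 against 27.2 CPM. ROBO2, an axon guidance receptor, was at 26.5 against 65.5 CPM. TMEM100, CHST9, a sulfotransferase gene on chromosome 18, and the long RNA CARMN were lower as well, with folds of 2.34, 2.28 and 2.24.

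The levels were graded along the score. CD24 was at 115.9 CPM in the 740 cells without a score UMI (109.2 to 122.8) and at 344.8 CPM in the 170 other cells that had one (325.4 to 365.2). It was at 453.5, 383.3 and 924.7 CPM in the 53 members with the lowest, the 54 with middle and the 54 with the highest scores, so the step from the low to the middle members went down. EPCAM followed with 204.9, 351.0, 396.2, 426.2 and 742.5 CPM over the same 5 groups. For both genes the other cells with a score UMI lay nearer to the low-scoring members than to the cells without one.

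TNFRSF19 ran the other way, from 62.7 CPM in cells without a score UMI to 34.2 CPM in other cells that had one. In the low, middle and high members it was at 11.2, 8.58 and 0 CPM, and the 0 UMIs of the high members allow up to 5.20 CPM. BEX1 was at 72.2, 28.6, 38.6, 12.9 and 1.73 CPM over the 5 groups and SPP1 at 70.2, 45.1, 28.7, 24.3 and 13.9 CPM. The median depth of the groups was 9863.5, 13594.5, 12829, 11656 and 9722.5 UMIs, since a deep cell with 1 score UMI scores low. The part of depth in these steps was not tested.

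**Figure D2:**
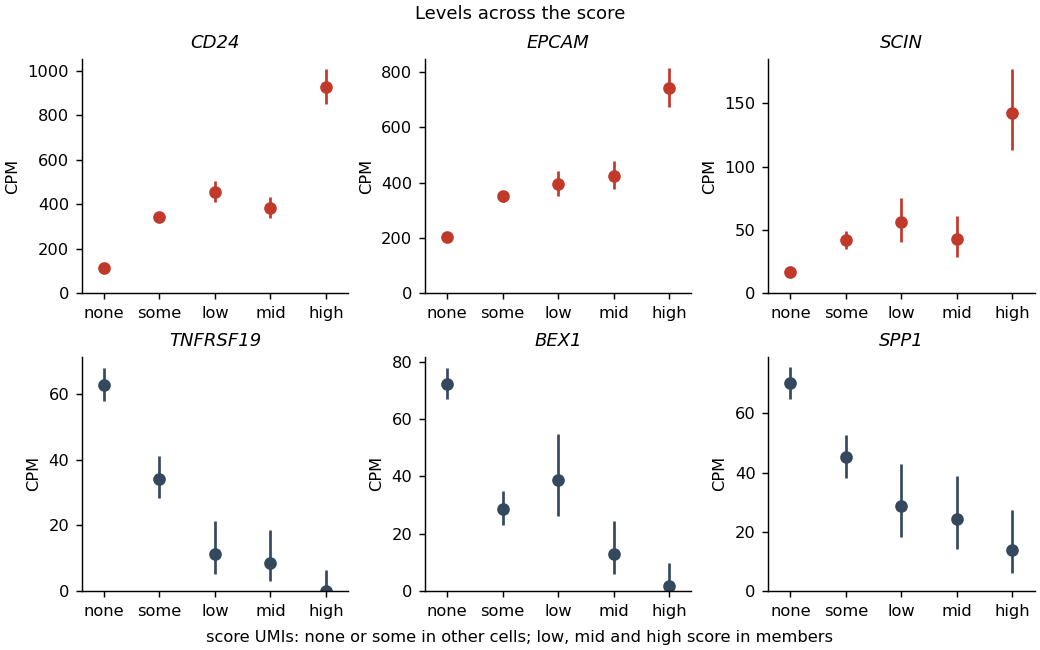
Pooled levels (CPM, axes from 0) of 6 leading genes in other cells with no or some score UMIs and in the members with low, mid and high scores, with exact Poisson intervals. CD24, EPCAM and SCIN were highest at the high end (924.7 CPM for CD24), and TNFRSF19, BEX1 and SPP1 lowest there (0 CPM for TNFRSF19).

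Cells were also divided by each score gene on its own, after thinning to 5000 UMIs. CD24 was at 1026 CPM in the 31 cells with ADAMTS8 against 196.5 CPM in cells without it, at 512.3 against 204.1 CPM for the 57 cells with PTGDS, and at 456.0 against 176.7 CPM for the 168 cells with COL1A2. EPCAM was at 412.9 against 301.7 CPM, 652.6 against 285.4 CPM and 527.4 against 263.6 CPM. TNFRSF19 was at 12.9 against 49.0 CPM, 7.02 against 50.3 CPM and 9.52 against 55.2 CPM. For CD24, EPCAM and TNFRSF19 the direction was the same with each score gene. SPP1 was an exception, at 64.5 against 61.5 CPM for ADAMTS8, 10.5 against 64.5 CPM for PTGDS and 38.1 against 66.0 CPM for COL1A2. The groups share cells, as 11 of the 31 cells with ADAMTS8 and 22 of the 57 with PTGDS also held COL1A2. The directions are therefore not independent of each other, and the low values of TNFRSF19 and SPP1 rest on very few UMIs, without intervals.

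Of the 31 epithelial genes listed, 7 passed the floor and all 7 lay above 0, with 3 at least 1.5-fold higher and a median log2 difference of 0.41 against -0.04 over all genes. Of all 6491 genes, 60 (0.924%) were at least 1.5-fold higher and 2717 lay above 0. CD24, EPCAM and KRT19, a keratin of simple epithelia, were the 3, with KRT19 at 48.6 against 28.2 CPM. The keratin pair KRT8 and KRT18 was at 1189 against 893.5 CPM and 1971 against 1510 CPM, 1.33-fold and 1.31-fold higher. CLDN3, a tight junction protein, was at 32.7 against 24.9 CPM and SPINT2, a protease inhibitor, at 377.3 against 344.4 CPM. CDH1, which encodes E-cadherin and defines epithelial junctions, had 0 UMIs in members and 6 in other cells, and KRT5, KRT7, KRT14 and ESRP1 had none in either.

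CD24, EPCAM and S100A10 were at 1238, 866.8 and 1260 CPM in MDAMB468. RGS10 was also higher in that line than in members, at 119.4 CPM. The rest of the 12 highest genes were lower in MDAMB468 than in members. PDLIM1 was at 48.5, CA2 at 16.9, SCIN at 1.45, RBP7 at 0.727 and SNCG at 0.182 CPM there, and FABP3, MT1A and MT1G had 0 UMIs. Of 16 markers of that line 14 had 0 UMIs in members and 12 had 0 in other cells, and the list summed to 13.5 and 13.05 CPM. The exceptions in members were EGFR, with 27 UMIs in members and 154 in other cells, and SLPI, with 1 and 9.

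Of 13 mesenchymal genes past the floor, 1 was at least 1.5-fold higher and none was lower, beside 0.924% and 1.51% of all 6491 genes. In the list 10 lay below 0 and the median was -0.07, where 3774 of all 6491 genes lay below 0. The higher gene was S100A4, a calcium-binding protein, at 377.3 against 228.3 CPM. VIM, vimentin, was at 297.4 against 336.1 CPM, ZEB1, a repressor of epithelial genes, at 50.5 against 70.6 CPM, and CDH2, N-cadherin, at 87.6 against 86.6 CPM.

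Of 7 other collagen genes past the floor none was 1.5-fold higher, 1 was lower and the median was -0.13. Of all 6491 genes 0.924% were higher and 1.51% lower, with a median of -0.04, so nothing is read from counts in lists this short. COL1A1, the chain that partners COL1A2 in type I collagen, had 4 UMIs in members and 7 in other cells, 3.60-fold higher with an interval from 0.774 to 14.2. COL2A1, the cartilage collagen, was at 33.2 against 59.0 CPM, and COL4A1 and COL4A2 of basement membranes were at 140.0 against 181.2 CPM and 56.8 against 75.3 CPM. COL3A1 had 1 UMI in members and 64 in other cells. The 16 genes of collagen processing past the floor held none past 1.5-fold and a median of -0.13, between PCOLCE, the procollagen proteinase enhancer, at 0.53 and PLOD1, a lysyl hydroxylase, at -0.47. The fibroblast markers FAP and THY1 had 0 UMIs in members and other cells, and the fibroblast list of 11 summed to 294.5 and 275.6 CPM.

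Of 25 prostaglandin genes listed, 14 were measured and 8 passed the floor, none of them past 1.5-fold in either direction, with a median of -0.03. Since 2.43% of all 6491 genes were past 1.5-fold and their median was -0.04, nothing is read from that absence. PTGES3, a cytosolic prostaglandin E synthase, was at 453.8 against 464.3 CPM, and the transporter gene ABCC4 at 37.5 against 45.2 CPM. PTGES, the inducible prostaglandin E synthase, lay below the floor with 42 UMIs in members and 73 in other cells, or 20.2 against 5.57 CPM, and was singled out after its values were seen. The cyclooxygenases PTGS1 and PTGS2 and the dehydrogenase HPGD were not analysed here.

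Of 32 interferon and antigen presentation genes 9 passed the floor, with 2 at least 1.5-fold higher, 8 above 0 and a median of 0.43. Over all genes 0.924% were called higher and 2717 of 6491 lay above 0. ISG15, a ubiquitin-like protein, was at 88.5 against 47.8 CPM, IFITM2, an endosomal restriction factor, at 90.5 against 51.7 CPM and B2M, the light chain of class I molecules, at 321.9 against 239.2 CPM. Cell by cell, ISG15 had a Spearman rho of 0.02 over the 1071 cells against 0.31 for CD24, both in counts thinned to 5000 UMIs and given as descriptions.

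**Figure D3:**
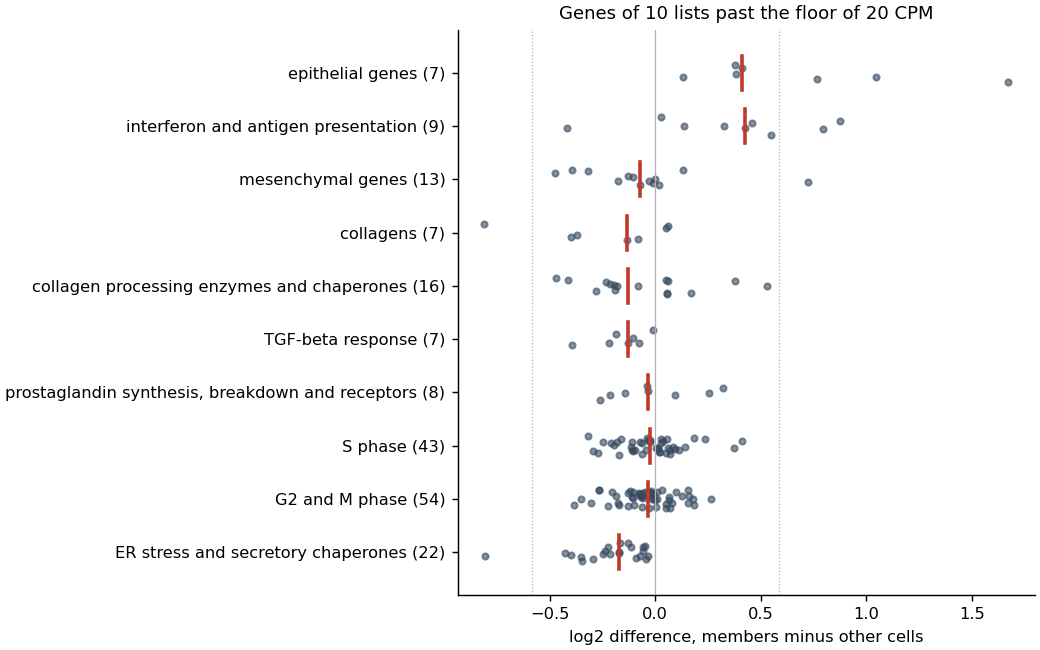
Log2 differences (members minus other cells) of the genes past the floor of 20 CPM in 10 lists. Each point is a gene, red bars are list medians, dotted lines mark 1.5-fold and the number of genes is in parentheses. All 7 epithelial genes lie above 0 (median 0.41), all 22 endoplasmic reticulum genes below it (median -0.17), and the S phase and G2 and M phase genes lie within the dotted lines.

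As 2.43% of all 6491 genes passed 1.5-fold either way, nothing is read from a count of 0 in a short list. Among proliferation genes none of 43 S phase genes and none of 54 G2 and M phase genes passed 1.5-fold, with medians of -0.02 and -0.03. Cell cycle phases called from these genes at 5000 UMIs were G1 in 8.07% of members (4.37% to 13.4%) and 8.46% of other cells, S in 24.2% (17.8% to 31.6%) and 23.96%, and G2M in 67.7% (59.9% to 74.8%) and 67.6%. Without thinning the G1 share was 7.45% of members and 8.35% of other cells. MKI67, a nuclear protein of cycling cells, was at 678.01 against 683.95 CPM. The cell cycle inhibitor CDKN1A was at 32.7 against 31.6 CPM.

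Other genes past 1.5-fold belonged to several systems. IGFBP3, which binds insulin-like growth factors, was at 318.1 against 196.8 CPM and TIMP1, a metalloproteinase inhibitor, at 87.1 against 52.1 CPM. CTH, cystathionine gamma-lyase, was at 120.8 against 68.8 CPM. GPC3, a surface proteoglycan abundant in CAL51, was at 390.7 against 702.9 CPM, 1.80-fold lower (1.67 to 1.94). FOXC1, a forkhead factor of mesenchyme, was at 72.7 against 134.5 CPM, NTS, neurotensin, at 44.8 against 87.96 CPM and ADM, adrenomedullin, at 36.6 against 77.3 CPM. VCAN, the matrix proteoglycan versican, was not past 1.5-fold, at 732.9 against 998.05 CPM, 1.36-fold lower (1.29 to 1.44).

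By chromosome, the median log2 difference over 22 other chromosomes, the mitochondrial one included, lay between -0.06 and 0.04. On chromosome 18 it was -0.26 over 111 genes past the floor, and on chromosome 20 it was -0.12 over 173 genes. On chromosome 18, 99 of the 111 genes (89.2%) lay below 0, against 57.0% of 6207 genes on the other chromosomes and 78.0% on chromosome 20. The chromosomes were examined after earlier values had been seen, and none of the 3 score genes lies on 18 or 20.

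The lower levels ran along the whole of chromosome 18. In 8 consecutive windows of 13 or 14 genes the medians lay between -0.40 and -0.16, with 10 to 14 genes of each window below 0. Of the 111 genes 7 were called lower and 1 higher, where 1.51% of all 6491 genes were lower and 0.924% higher. RIOK3, a kinase gene, was at 35.6 against 58.2 CPM, LIPG, endothelial lipase, at 50.04 against 75.7 CPM and OSBPL1A, an oxysterol-binding protein gene, at 28.9 against 50.3 CPM. CYB5A, cytochrome b5, was the exception at 231.5 against 151.3 CPM, 1.53-fold higher (1.38 to 1.69). Without the 8 called genes the median of the other 103 was -0.25.

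Per cell, the share of UMIs on chromosome 18 formed a pair of peaks, and the members lay mostly in the lower one. Among 558 ranked cells with at least 10000 UMIs, 77 had a share between 1.3% and 1.4% and 81 between 1.8% and 1.9%, with 30 in the dip between 1.5% and 1.6%. The median share was 1.31% in members (quartiles 1.21% and 1.42%) and 1.64% in other cells (quartiles 1.35% and 1.84%). With the cells divided at 1.5%, a value set after seeing these shares, 138 of 161 members were below it, or 85.7% (79.3% to 90.7%), against 352 of 910 other cells, or 38.7% (35.5% to 41.9%). Within 0.1 percentage points of the division lay 36 members and 131 other cells.

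**Figure D4:**
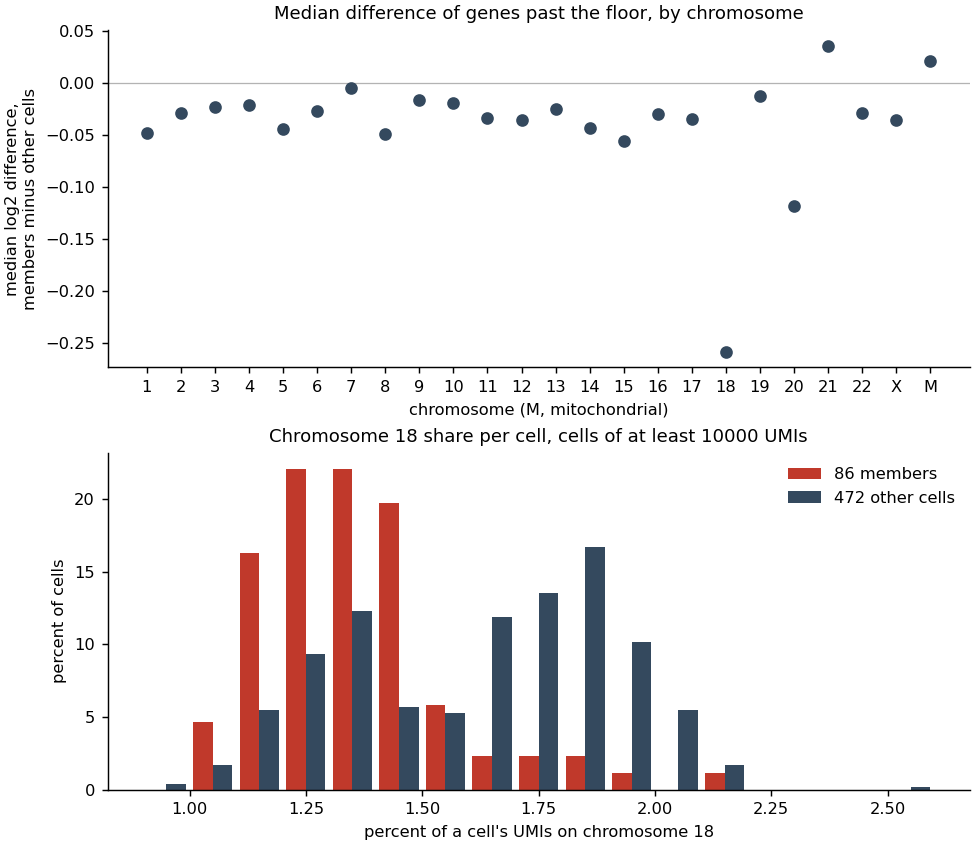
Top, median log2 difference of genes past the floor for each chromosome (M, mitochondrial), with chromosome 18 at -0.26 and chromosome 20 at -0.12. Bottom, percent of cells by the share of their UMIs on chromosome 18, for the 86 members and 472 other cells with at least 10000 UMIs; most members lie below 1.5% and the other cells form a pair of peaks.

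The share below the division followed the score. It was 34.7% of the 740 cells without a score UMI, 55.9% of the 170 other cells with one, and 77.4%, 87.04% and 92.6% of the low, middle and high members. Read the other way, members made up 28.2% of the 490 cells below the division (24.2% to 32.4%) and 3.96% of the 581 cells at or above it (2.53% to 5.88%). With 10000 UMIs or more, 84.9% of members and 34.96% of other cells were below. Chromosome 20 differed in a smaller group: 80 of 910 other cells had at least 3% of their UMIs there and 0 of 161 members did, which allows up to 2.27%. The highest share of a member was 2.98%, just under that cut, so the 0 depends on where the cut was placed. Median shares on chromosome 20 were 2.14% in members and 2.22% in other cells. DNA was not measured, and whether the cells differ in chromosome number was not tested.

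The leading genes were read on each side of the division, and not all of them kept their difference. Below 1.5%, CD24 was at 616.4 CPM in 138 members and 240.4 CPM in 352 other cells, 2.56-fold higher (2.35 to 2.79). At or above it, CD24 was at 338.2 CPM in 23 members and 140.1 CPM in 558 other cells, 2.41-fold higher (2.01 to 2.88). EPCAM was 1.80-fold higher (1.65 to 1.96) below and 1.74-fold higher (1.47 to 2.06) above, and TNFRSF19 8.09-fold lower (3.84 to 20.5) and 3.48-fold lower (1.75 to 8.09). BEX1 was 7.73-fold lower (4.76 to 13.4) below the division, while above it the 23 members held 24 UMIs, at 57.6 against 51.2 CPM. Above it SNCG was at 14.4 against 13.8 CPM, 1.04-fold (0.374 to 2.33), and SCIN was 1.52-fold higher with an interval from 0.794 to 2.67, on 6 and 13 UMIs in members. CHST9, on chromosome 18, was 1.42-fold lower below the division with an interval from 0.955 to 2.16.

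The division itself separated some of these genes and not others. CD24 was at 340.5 CPM in the 490 cells below it and 149.3 CPM in the 581 cells at or above it, and TNFRSF19 at 26.1 against 64.5 CPM. KRT8, at 1081 against 831.65 CPM, and KRT18, at 1863 against 1371.5 CPM, were also higher below it. BEX1, at 60.8 against 51.5 CPM, and SPP1, at 74.4 against 46.8 CPM, were higher below the division although lower in members. How far the share of chromosome 18 accounts for the differences of the members was not tested.

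The 275 CAL51 cells with fewer than 5000 UMIs were not ranked by the rule, and the same genes were read in them. Of these cells 58 had a score UMI and 217 had none. At this depth 9.13% of 6431 genes were at least 1.5-fold higher and 15.4% at least 1.5-fold lower by the pooled values. Of the 12 highest genes 9 were at least 1.5-fold higher in cells with a score UMI, and of the 12 lowest 11 were at least 1.5-fold lower. CD24 was at 517.8 CPM in cells with a score UMI (429.0 to 619.7) and 129.97 CPM in those without (106.3 to 157.3), 3.98-fold higher (3.04 to 5.23). EPCAM was 1.45-fold higher (1.15 to 1.82). BEX1 had 2 UMIs against 56, 7.96-fold lower (2.10 to 67.4), and SPP1 0 against 46, at least 4.36-fold lower by a floor of 3 counts over the group.

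Exceptions in the shallow cells were MT1A, with 2 UMIs against 19, RGS10, with 7 against 32, and CARMN, with 5 against 17. Their folds were 0.370 (0.0418 to 1.53), 0.769 (0.286 to 1.77) and 1.03 (0.298 to 2.92), with over without a score UMI. Each interval includes 1, so none of these reversals was detectable. TNFRSF19 had 5 UMIs against 40, 2.28-fold lower with an interval from 0.898 to 7.39, so its difference was not detectable at this depth. The same held for STEAP1 (0.922 to 7.56), CHST9 (0.691 to 11.8) and SEL1L3 (0.707 to 190.9) among the 11 lower genes and for SNCG (0.630 to 6.41) among the 9 higher ones, whose intervals of the fold also include 1. The share of UMIs on chromosome 18 had a median of 1.32% in the cells with a score UMI and 1.59% in those without. Their median depths were 4072.5 and 3686 UMIs, and the part of depth was not tested.

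**Figure D5:**
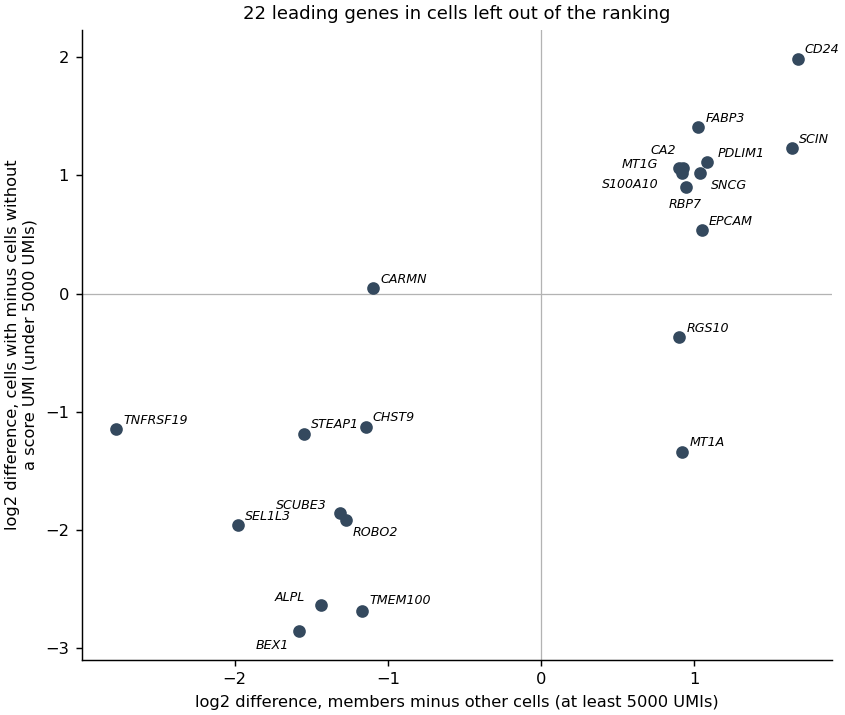
Log2 differences of 22 leading genes in ranked cells (x axis, members minus other cells) and in the 275 cells with fewer than 5000 UMIs (y axis, 58 cells with minus 217 without a score UMI). The rule did not rank these 275 cells, but a setting used to choose the leading genes did. SPP1 is left out because it had 0 UMIs in one group; MT1A, RGS10 and CARMN lie on the other side of 0 from their value in ranked cells.

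The members were set beside cell sets made by the same 15% rule from other genes. Of the members 17 (10.6%, 6.27% to 16.4%) were also among the 161 cells highest in APOE and APOC1, as were 15.8% of the other cells. For COL3A1 and COL2A1 the numbers were 16 (9.94%, 5.79% to 15.6%) and 15.9%, and for the G2 and M phase genes 24 (14.9%, 9.79% to 21.4%) and 15.1%. The overlap of each set is a share of 161 cells either way, since the sets are of equal size. In the cells high in COL3A1 and COL2A1 some leading genes ran opposite. EPCAM was at 113.9 CPM there and 305.9 CPM in the rest, CA2 at 128.1 and 392.8 CPM, and BEX1 at 161.9 and 37.4 CPM. Other genes higher in members were also higher there, with SNCG at 28.4 and 19.2 CPM and ISG15 at 88.7 and 47.4 CPM. KRT8, at 1090 and 907.8 CPM, and KRT18, at 1838 and 1529 CPM, were higher there too. The chromosome 18 share was below 1.5% in 73.3% of these cells. On chromosome 20, 26.7% of them had at least 3% of UMIs, where the highest member had 2.98%. Of the cells high in APOE and APOC1 33.5% were below 1.5% on chromosome 18. S100A10, at 395.4 and 272.1 CPM, and ISG15, at 79.6 and 48.2 CPM, were higher in that set. So were KRT8, at 1117 and 898.35 CPM, and KRT18, at 1789 and 1531 CPM. CD24 was level there, at 228.2 and 227.8 CPM, and EPCAM lower, at 251.6 and 283.4 CPM. In the G2 and M phase set both keratins were lower, KRT8 at 668.0 and 985.9 CPM and KRT18 at 1168 and 1652.5 CPM.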

How the data were processed

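The deposited matrix holds whole-number counts of UMIs per gene and barcode, and the lowest total of a deposited barcode was 2501 UMIs. STARsolo is named in the submitters' processing notes. The sources used here do not give its version, settings, genome build, annotation or barcode selection, nor how strand and near-identical genes were handled, so values of paralogs are uncertain. Barcode names assigned every barcode to a line. Symbols were found for 30730 of 30796 identifiers, and positions came from GENCODE release 29 on GRCh38 for 29416.

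Counts were pooled over members and over other cells and expressed as CPM. The floor was 20 CPM over all ranked cells, the pseudocount 1 CPM and the fold for a call 1.5. Poisson and Clopper-Pearson intervals are exact, and fold intervals are conditional on the summed count. With 1 library per line no test was made and no p-value computed. Thinning drew 5000 UMIs per cell without replacement. Phases were called with scanpy 1.11.5. No doublet caller was run. Score bins of equal size could not be formed because 740 cells tie at 0, so those cells, the other cells with score UMIs and 3 groups of members were used. The pooling was checked on simulated counts. TMM factors came from edgeR 4.0.16 in R 4.3.3. The other steps ran in Python 3.11.15 with pandas 2.3.3, scipy 1.17.1 and numpy 2.4.6, and plots were drawn with matplotlib 3.10.9.

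The rule for named genes took the 12 highest and 12 lowest log2 differences with the same sign under all 23 other settings listed at the outset, without mitochondrial, ribosomal protein, dotted and clone-type symbols, the extremes of each list with at least 5 genes past the floor, and a fixed set. Other genes were singled out after their values were seen, and some named by the rule are not reported here. The members, gene lists and rules were chosen with earlier results of these data known. Alternatives changed the cells ranked, the score, the depth, the scaling, the pseudocount, the floor and the cells compared, and 5 were added after seeing the data.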

Additional observations from a re-analysis of the deposited data

How the results depend on the processing

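Across 28 alternatives the median of the epithelial genes stayed above 0 (0.30 to 0.72), as did that of the interferon and antigen presentation genes (0.07 to 0.85). The collagen median ranged from -0.67 to 0.02. Of 41 named genes past 1.5-fold, 11 changed sign under at least 1 alternative. The 12 highest and 12 lowest genes among them were chosen for keeping their sign under the 23 settings listed at the outset. They could reverse only under the 5 added later, so the choice of genes holds the count of 11 down. Of 2912 pairs of gene and alternative, 2383 stayed within the counting interval of the gene. The cause of the changes below was not tested.

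Against 60 higher and 98 lower genes, the counts were 142 and 282 in values thinned to 5000 UMIs, 34 and 47 with a pseudocount of 10 CPM, 246 and 432 with a floor of 5 CPM, 25 and 27 with a floor of 50 CPM, 775 and 1607 within G1 (13 members), and 284 and 543 within S (39 members). In cells under 5000 UMIs they were 587 and 992, and at or above the chromosome 18 division 283 and 404. The lower genes alone moved to 231 for the top 10%, 179 at 10000 UMIs or more, 50 for a score without COL1A2, 273 for a score from one random part of the UMIs read in the other, 159 for members with at least 5 score UMIs and 171 below the chromosome 18 division. Genes past the floor were found anew in each set of cells and changed with the floor, so these counts are not out of the same genes. The counts under 5000 UMIs were 9.13% and 15.4% of 6431 genes, against 0.924% and 1.51% of 6491 in ranked cells.

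The median of chromosome 18 stayed below 0 in all 28, from -0.45 within G1 to -0.045 below and -0.076 at or above the division that is defined by it. Thinned to 1000 UMIs, 14.3% of members were called G1 and 57.8% G2M. With members and the other sets all cut to the top 10%, 4.67% of members shared the COL3A1 and COL2A1 set, against 10.6% of other cells. For the G2 and M phase set the shares were 9.35% and 10.1%.

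Signs reversed within G1 for PRRX2 (-0.17), S100A4 (-0.43) and IGFBP3 (-0.41), and within S for VEGFA (-0.29). In cells under 5000 UMIs they reversed for MT1A (-1.34), RGS10 (-0.37), VEGFA (-0.71) and CARMN (0.046). At or above the chromosome 18 division, with 23 members, they reversed for VEGFA (-0.83), TCEAL7 (0.16), COL2A1 (0.24), NTS (0.38) and BEX1 (0.17). No paired analysis was possible because each line had 1 library.

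The members rest on a median of 4 score UMIs, so a cell can be a member or not by counting error, and genes below the floor are not described beyond single values.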

Other observations

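All 22 genes of endoplasmic reticulum chaperones and stress past the floor lay below 0, with a median log2 difference of -0.17 against -0.04 over all genes, and 1 of them, SEL1L, was past 1.5-fold. Over all 6491 genes 3774 lay below 0 and 1.51% were at least 1.5-fold lower. SEL1L, a subunit of the ubiquitin ligase that clears misfolded proteins, was at 27.9 CPM in members and 49.5 CPM in other cells. HERPUD1, a stress-induced membrane protein of the same degradation pathway, was at 167.5 against 221.3 CPM and CRELD2, a secreted chaperone-like protein, at 147.25 against 198.2 CPM. The chaperones HSPA5 and HSP90B1 were closer, at 1236 against 1392.5 CPM and 2575 against 2891 CPM.

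Gene families were chosen after the leading genes had been seen, so their counts support nothing. Over all 6491 genes 0.924% were at least 1.5-fold higher, 1.51% at least 1.5-fold lower, and 2717 lay above 0. Of 7 metallothioneins past the floor, MT1A, MT1G and MT1M were at least 1.5-fold higher and the median was 0.31, while MT2A, the most abundant, was at 503.3 against 414.5 CPM and MT1X at 72.2 against 82.3 CPM. Of 7 S100 genes all lay above 0, with a median of 0.46. S100A6 was at 1355 against 991.7 CPM and S100A11 at 597.2 against 436.2 CPM. Of 10 BEX and TCEAL genes, neighbours on the X chromosome, BEX1 and TCEAL7 were at least 1.5-fold lower and BEX2 was at 218.0 against 193.3 CPM.

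IFIT2, an interferon-induced gene below the floor, had 87 UMIs in members and 188 in other cells, or 41.9 against 14.3 CPM. CLDN1, a tight junction gene also below the floor, had 34 and 84 UMIs, or 16.4 against 6.41 CPM. POSTN, a fibroblast marker, had 0 UMIs in members and 55 in other cells. These were picked out after their values were seen.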
